A study of Mus musculus with 6 samples.

Results

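Grem1 and Bmp2 are a pair of mouse genes that encode opposing secreted proteins of bone morphogenetic protein (BMP) signalling. They were chosen by symbol from the authors' deposited table, 2 of the 3257 genes analysed, because both were known to differ between the groups compared here. Their values in that comparison are therefore given as a description and without a test. RNA was sequenced from primary Sertoli cells, the somatic cells that nurse germ cells in the seminiferous tubule, of C57BL/6 mice. Cells of UXT knockout animals had been infected with a viral Cre recombinase construct, and cells of wild-type animals with an empty plasmid. Each group had 3 libraries, and nothing in the labels tells whether these came from separate animals or cultures, so the spread between libraries may be technical. Only knockout cells received Cre, so the loss of UXT and the Cre construct cannot be told apart. UXT, also known as ART-27, is a prefoldin-like protein and a cofactor of the androgen receptor.

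BMPs are dimeric ligands of the transforming growth factor beta (TGF-beta) superfamily. They bring together type I and type II serine/threonine kinase receptors, which phosphorylate SMAD1, SMAD5 and SMAD9, and these enter the nucleus with SMAD4 and induce targets such as the Id genes. Gremlin 1, the product of Grem1, binds BMP2, BMP4 and BMP7 outside the cell and keeps them from their receptors. In the testis, several ligands of the superfamily, among them inhibins, activins and anti-Müllerian hormone, are made by or act on Sertoli cells.

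Grem1 (gene ID 23892) lies on chromosome 2, from 113746164 to 113758646 on the minus strand of GRCm38, the assembly also called mm10. Its single annotated transcript in GENCODE M21 has 2 exons. Bmp2 (gene ID 12156) lies on the same chromosome, from 133552159 to 133562885 on the plus strand, and its single annotated transcript has 3 exons. No other gene of that annotation overlaps either locus. The sequence just before the Grem1 start, from RefSeq on GRCm38.p6 (chr2:113758649-113758898, minus strand), is shown because it is the promoter of the gene with the largest rise of the table. It is written 5′ to 3′ over the 250 bases that end just before the start site, with capitals for GC boxes (GGGCGG), a GC-rich element that BMP-activated SMADs can bind (GGCGCC) and an AT-rich stretch (TTTAAA).
Grem1 promoter: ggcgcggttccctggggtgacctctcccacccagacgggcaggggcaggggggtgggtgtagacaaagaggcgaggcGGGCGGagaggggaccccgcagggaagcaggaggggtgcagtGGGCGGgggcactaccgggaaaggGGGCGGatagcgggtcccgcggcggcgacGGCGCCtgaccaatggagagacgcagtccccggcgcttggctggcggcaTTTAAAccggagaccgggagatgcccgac

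The window was 72.0% G and C, against a median of 52.4% over the 32851 promoter windows of the reference. GGGCGG, searched on both strands, began 173, 131 and 107 bases before the start, and 32.7% of all windows held it at least once. GGCGCC, which reads the same on both strands, began 78 bases before the start, and 9.59% of all windows held it. TTTAAA, also the same on both strands, began 29 bases before the start, and 12.1% of all windows held it. Of the 28 genes of the pathway lists described further on that were in the table, 20 had an entry, with 22 windows in all. GGCGCC occurred in 5 of these windows and GGGCGG in 13. Of 3 further motifs searched on both strands, the SMAD core CAGAC began 219 bases before the start and was in 42.2% of all windows. The SMAD-binding element GTCTAGAC (0.167% of all windows) and the steroid receptor half-site AGAACA (16.1%) had no match in this window. CAGAC overlapped none of the capitals. Matches and their absence describe the letters only, and binding was not measured.

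Grem1 was higher in every knockout library than in every wild-type library. Its deposited values, normalized by the authors and on a log2 scale, were 7.89, 7.93 and 8.32 in the wild-type libraries. In the knockout libraries they were 11.03, 11.16 and 11.26. The highest wild-type library and the lowest knockout library were 2.72 apart. The spread between replicates was small beside that gap, since the wild-type mean was 8.05 ± 0.23 and the knockout mean 11.15 ± 0.12 (SD, n = 3 each). On the log2 scale the group means differed by 3.10 ± 0.12 (SE of the fit across the table). In the authors' deposited table the change was 23.1-fold, the largest among the 1047 higher genes (32.1% of the table), whose median fold was 1.75. By adjusted p-value, which weighs precision as well as size, Grem1 stood in place 109 of that table.

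Bmp2 was lower in every knockout library than in every wild-type library. The wild-type libraries stood at 7.08, 7.13 and 7.06, and the knockout libraries at 6.02, 6.01 and 6.21. The groups did not overlap and were 0.85 apart at their nearest libraries. The wild-type mean was 7.09 ± 0.04 and the knockout mean 6.08 ± 0.11 (SD, n = 3 each), a difference of -1.01 ± 0.09 (SE of the fit across the table) on the log2 scale. Its size depended on the scaling between libraries, at -0.57 after quantile normalization and -0.72 after centring each library on its median. The authors' deposited table gave a 6.95-fold fall, in place 138 by size among its 2210 lower genes (67.9% of the table), whose median fold was 2.33. The third knockout library had the highest Bmp2 of its group and also the highest Grem1 of its group. Its median over the table's genes was likewise the highest of the knockout libraries (8.91 against 8.82 and 8.88).

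**Figure D1:**
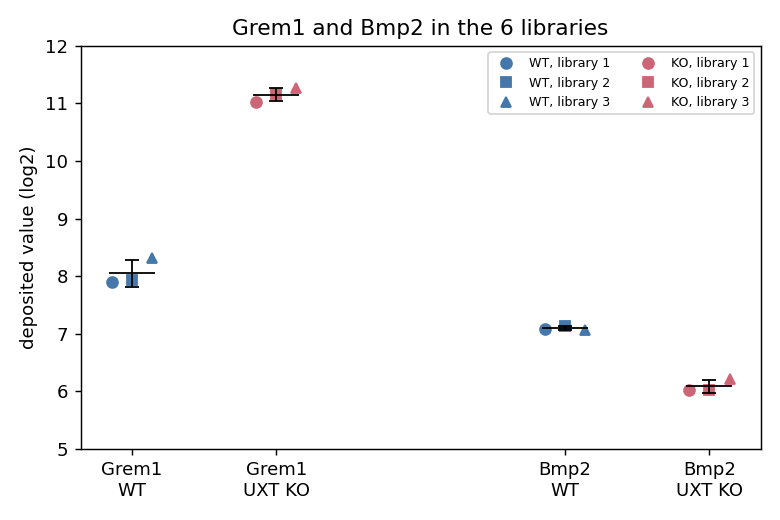
Deposited log2 values (vertical axis) of Grem1 and Bmp2 in each wild-type (blue) and UXT knockout (red) library, with the marker shape giving the library number; long bars are group means and whiskers the SD of 3 libraries. Grem1 goes from 8.05 to 11.15 and Bmp2 from 7.09 to 6.08, with no overlap between groups in either gene.

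The library values understate the folds of the authors' table, and not equally. The authors' deposited table listed a log2 fold change of 4.53 for Grem1, and the difference of its library values came to 0.69 of that. For Bmp2 the authors' deposited table listed -2.80, and the library values kept 0.36 of it. The median of this share over all genes was 0.58, so Bmp2 kept less of its fold than the median gene and Grem1 more. Among the pathway genes described further on, the share was lowest for Hamp (0.08), Bmp8b (0.14) and Amh (0.16), whose library values were low. Which measure is nearer the true size of a change was not tested. Library values show direction and spread.

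The distance between the antagonist and the ligand widened. The log2 value of Grem1 minus that of Bmp2 was 0.81, 0.80 and 1.25 in the wild-type libraries and 5.01, 5.14 and 5.05 in the knockout libraries. The mean went from 0.95 ± 0.26 to 5.07 ± 0.07 (SD, n = 3 each), an increase of 4.12. The authors' deposited log2 fold changes of 4.53 for Grem1 and -2.80 for Bmp2 lie further apart, so 4.12 understates the widening on those folds. Shifting a whole library up or down leaves this within-library quantity as it is. It shows an unequal change of the genes and not the level of either. Per kilobase of annotated exon, Grem1 stood at 5.99 and Bmp2 at 5.26 in wild-type cells on the log2 scale, and at 9.10 and 4.25 in knockout cells. The library values keep unequal shares of the authors' folds, so the order of these genes in wild-type cells is uncertain. Protein and BMP activity were not measured.

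**Figure D2:**
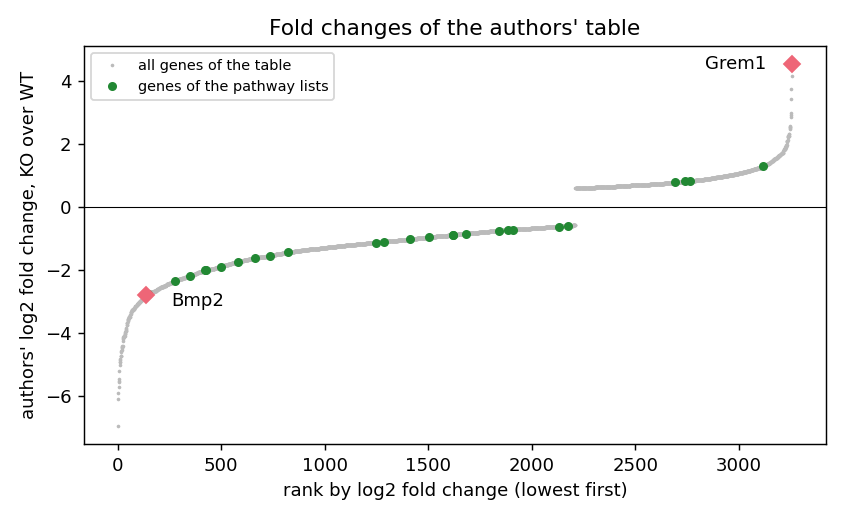
Log2 fold change (vertical axis, authors' deposited table) of all 3257 genes in rank order (horizontal axis), with the pathway genes in green and Grem1 and Bmp2 as red diamonds. Grem1 is the last point on the right at 4.53, and Bmp2 lies at -2.80 in the steep part on the left.

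The other genes of the pathway were taken from 6 lists by role, with 109 genes in all, of which 28 were in the table. The remaining 81 were not analysed here. The table was selected by the authors on these same libraries, so a call carries no independent weight: limma called 99.6% of all its genes at an adjusted p under 0.05, with 67.5% lower and 32.1% higher. Groups did not overlap in 97.5% of all genes. Without Grem1 and Bmp2, 26 pathway genes were left, 22 lower and 4 higher, all of them called, with a median difference of -0.52 against -0.40 over the table. The groups overlapped in Bmp7 only. Quantile normalization moved the table's median difference up by 0.33 and centring each library on its median moved it up by 0.30, and the lower share of the table's calls went from 67.8% to 52.1% and 47.9%. Both scalings were set on these selected genes, most of them lower, so part of the shift they removed may be real. Centring adds the same 0.30 to every difference. A call lost or a sign turned under these scalings therefore does not show that a gene did not differ. After both scalings, 13 of the 26 genes held the same call. These were the 4 higher genes, Inhba, Smad9, Id1 and Tbx3, and 9 lower ones, Bmp4, Gdf6, Gdf15, Inha, Fstl3, Amhr2, Eng, Hey1 and Alpl.

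Among BMP and growth differentiation factor (GDF) ligands, 7 of 21 were in the table. All 7 were lower, against 67.5% of the whole table, and Bmp2 among them was chosen for its difference. Of the others, only Bmp4, Gdf6 and Gdf15 held their call after both scalings. Bmp2 had the largest fold of the 7 in the authors' deposited table. In the library values, though, Gdf15 (-2.22) and Bmp4 (-1.49) fell further than Bmp2 (-1.01). In the authors' deposited table Gdf15, a stress-induced member, fell 6.72-fold. By the same authors' deposited table Bmp4, the close relative of Bmp2 and a target of gremlin 1, fell 4.53-fold. Bmp4 stood at 9.37, 10.52 and 10.02 in the wild-type libraries and at 8.41, 8.54 and 8.50 in the knockout libraries. The wild-type libraries thus varied widely (9.97 ± 0.58, SD, n = 3) while the knockout libraries were close together (8.48 ± 0.06, SD, n = 3), and the difference was -1.49 ± 0.24 (SE, limma adjusted p = 4.29e-04). Gdf6, a ligand of joint and eye development, fell 2.92-fold in the authors' deposited table (limma adjusted p = 1.13e-04). The authors' deposited table listed Bmp6 as 1.85-fold lower, and its limma difference of -0.53 went to -0.22 after quantile normalization and -0.23 after centring, no longer called. Bmp7, another ligand bound by gremlin 1, and Bmp8b were 2.03-fold and 4.04-fold lower in the authors' deposited table. Their differences of -0.29 each were smaller than the 0.30 that centring adds to every gene. Bmp7 went to 0.09 and 0.01 under quantile normalization and centring, and Bmp8b to -0.09 and 0.01. Bmp8b has a near-identical copy, Bmp8a, so its reads may have been divided.

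Per kilobase of exon, the order of the 7 ligands in wild-type cells was Gdf6 (10.28), Gdf15 (9.25), Bmp4 (8.80), Bmp6 (7.66), Bmp2 (5.26), Bmp7 (3.86) and Bmp8b (2.56), as mean log2 levels. Libraries of neighbours in that order overlapped only for Gdf15 and Bmp4. In knockout cells the order was Gdf6 (9.27), Bmp4 (7.32), Bmp6 (7.13), Gdf15 (7.03), Bmp2 (4.25), Bmp7 (3.58) and Bmp8b (2.27). There Bmp4 overlapped with Bmp6, and Bmp6 with Gdf15. Bmp2 kept place 5 of 7 in both groups, clear of the ligands above and below it, and its level was under that of Bmp4, Bmp6 and Gdf6 in every library. These orders hold for the library values only. Those values keep unequal shares of the authors' folds, so the order of the true levels may differ.

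**Figure D3:**
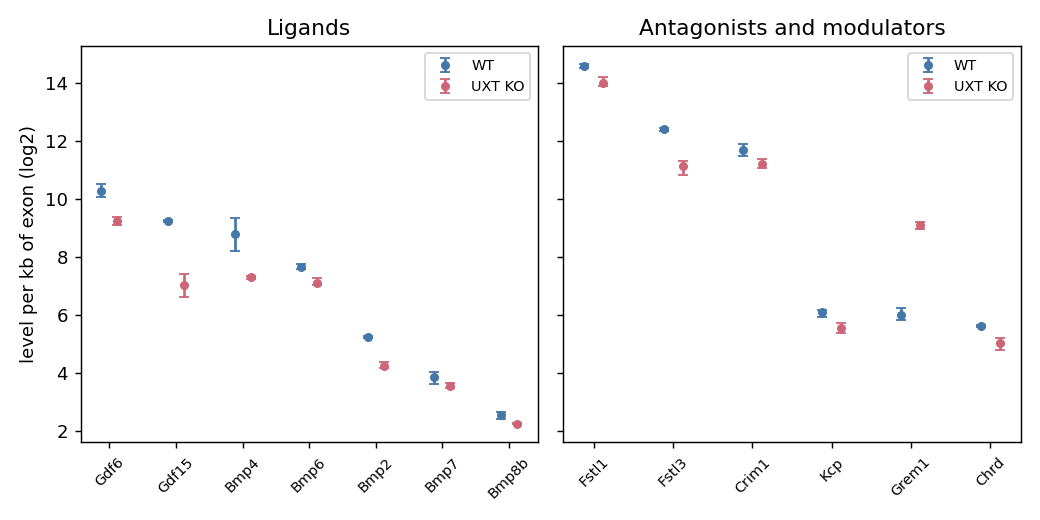
Mean log2 level per kilobase of annotated exon (vertical axis) of the ligands (left) and of the antagonists and modulators (right) in the table. Wild-type cells are blue and UXT knockout cells red, and whiskers span the lowest and highest of 3 libraries. In these library values Bmp2 is in place 5 of 7 ligands in both groups. Grem1 goes from place 5 to place 4 of 6 antagonists and modulators. The order of the true levels may differ.

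Among secreted BMP and activin antagonists and modulators, 6 of 22 were in the table. Grem1, chosen for its difference, was the only one that was higher, against 32.1% called higher over the whole table. Fstl3, a follistatin-like protein that binds activins, fell 3.71-fold in the authors' deposited table. Its values were 13.74, 13.75 and 13.62 in wild-type and 12.52, 12.62 and 12.13 in knockout libraries, a difference of -1.28 ± 0.12 (SE, limma adjusted p = 3.16e-05). Chrd, which encodes the BMP antagonist chordin, was 2.19-fold lower in the authors' deposited table, with a limma difference of -0.59 that went to -0.14 after quantile normalization and was then not called. Kcp (1.94-fold), Fstl1 (1.81-fold) and Crim1 (1.65-fold) were lower in the authors' deposited table, and each also lost its call under quantile normalization and under centring. Kcp and Crim1 encode proteins with chordin-like cysteine-rich repeats, and Fstl1 a follistatin-like glycoprotein.

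In the library values, the rise of Grem1 changed its place among these genes. Per kilobase of exon, wild-type cells had Fstl1 (14.58), Fstl3 (12.42), Crim1 (11.68), Kcp (6.10), Grem1 (5.99) and Chrd (5.63), as mean log2 levels, with Kcp and Grem1 overlapping. Knockout cells had Fstl1 (14.00), Crim1 (11.20), Fstl3 (11.13), Grem1 (9.10), Kcp (5.56) and Chrd (5.04). Grem1 was then clear of Kcp and Chrd and still below Fstl1, Crim1 and Fstl3 in every library. In wild-type cells its level per kilobase was below that of Bmp4, and in knockout cells it was above Bmp4 and overlapped with Gdf6 (9.27). As for the ligands, the order of the true levels may differ.

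Of the other ligands of the superfamily, 5 of 10 were in the table, with 4 lower and 1 higher. Over the whole table, 67.5% of genes were called lower. Inhba, which encodes the beta A subunit of activin A and of an inhibin, rose 1.75-fold in the authors' deposited table, from 15.58, 15.39 and 15.44 in wild-type to 16.09, 16.00 and 15.92 in knockout libraries (difference 0.54 ± 0.10 SE, limma adjusted p = 7.26e-04). Its difference was 0.93 after quantile normalization and 0.83 after centring. Inha, the alpha subunit found only in inhibins, fell 3.09-fold in the authors' deposited table (difference -1.25 ± 0.18 SE, limma adjusted p = 2.46e-04). The subunits that make up inhibin A thus moved in opposite directions. Amh, the anti-Müllerian hormone, was 4.04-fold lower in the authors' deposited table at a low level (4.60 ± 0.11 in wild-type and 4.27 ± 0.04 in knockout, SD, n = 3 each), and its call was lost after quantile normalization (difference -0.12) and centring (-0.03). Tgfb2 and Tgfb3 were 1.66-fold and 1.69-fold lower in the authors' deposited table, and centring ended both calls.

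Receptors and SMADs were sparse in the table. Of 19 receptors and co-receptors 3 were in it, all lower (67.5% over the whole table), and none was a type I or type II receptor of BMP2. Amhr2, the type II receptor of anti-Müllerian hormone, fell 3.34-fold in the authors' deposited table (difference -1.47 ± 0.20 SE, limma adjusted p = 1.93e-04). Eng, which encodes endoglin, a co-receptor abundant on endothelial cells, fell 1.85-fold (limma adjusted p = 1.92e-04), and Tgfbr2 was 1.52-fold lower, both in the authors' deposited table. The difference of Eng went from -0.59 to -0.34 under quantile normalization and -0.29 under centring, still called, and the call of Tgfbr2 was lost under both scalings. Of 17 SMADs and regulators 2 were in the table. Smad9, a SMAD activated by BMP receptors, rose 1.77-fold in the authors' deposited table, with 6.13, 6.28 and 6.35 in wild-type and 6.48, 6.55 and 6.58 in knockout libraries (difference 0.28 ± 0.09 SE, limma adjusted p = 0.0123). The size of the Smad9 difference depended on the scaling, at 0.71 after quantile normalization and 0.58 after centring. Tob1, an antiproliferative protein that binds SMADs, was 1.54-fold lower in the authors' deposited table, a call lost under both scalings.

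Of 24 BMP target genes, 5 were in the table, 2 higher and 3 lower. That is 60% lower, near the 67.5% of the whole table, and 1 of the 3 lower genes, Hamp, turned after centring. Id1, a dominant-negative helix-loop-helix protein and a direct SMAD target, rose 1.72-fold in the authors' deposited table. It stood at 10.51, 10.79 and 10.73 in wild-type and at 11.06, 10.92 and 11.52 in knockout libraries, and the groups did not overlap (difference 0.49 ± 0.15 SE, limma adjusted p = 0.0108). Much of the size came from the third knockout library, without which the difference was 0.31 (limma adjusted p = 0.0178), and centring raised it to 0.78. Id1 was higher in the same libraries in which Grem1 was higher and Bmp2 lower. Groups did not overlap in 97.5% of all genes, so most higher genes share this pattern and it does not single out Id1. Tbx3, a T-box repressor, rose 2.45-fold in the authors' deposited table (difference 0.81 ± 0.09 SE, limma adjusted p = 9.06e-05). Hey1, a repressor that Notch as well as BMP induces, fell 5.05-fold, and Alpl, the tissue-nonspecific alkaline phosphatase used as an early marker of bone formation, fell 2.72-fold in the authors' deposited table (limma adjusted p = 4.17e-04 and 3.84e-04). Quantile normalization moved the difference of Hey1 from -0.93 to -0.50 and that of Alpl from -0.85 to -0.54. Hamp, the hepcidin gene that BMP6 induces in liver, was listed 2.15-fold lower in the authors' deposited table at values between 2.37 and 2.51, near the lowest of the table, and its difference of -0.09 turned to 0.20 after centring.

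**Figure D4:**
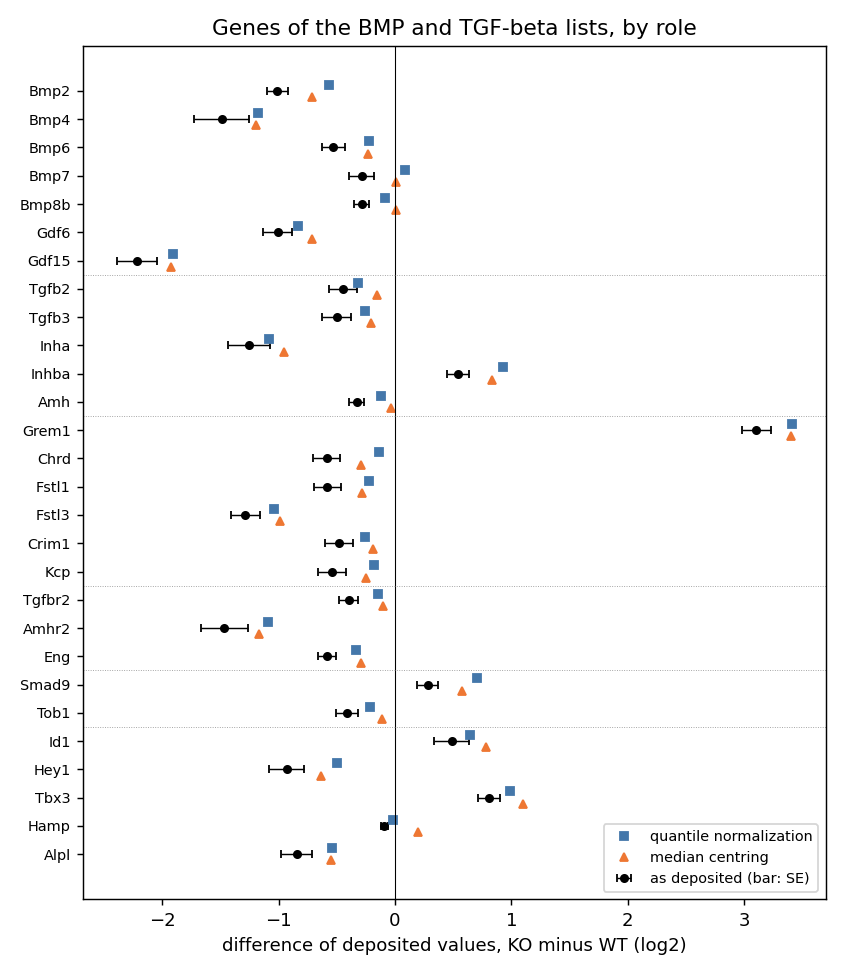
Difference between knockout and wild-type means (horizontal axis, log2) for the 28 pathway genes in the table, by role from ligands at the top to targets at the bottom; black points with SE bars use the deposited values, blue squares quantile-normalized and orange triangles median-centred ones. Grem1 lies alone at 3.10 to 3.41, Bmp2 stays below 0 at -1.01 to -0.57, and Bmp7, Bmp8b and Hamp cross 0.

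Genes whose pattern over the 6 libraries was most like that of Grem1 were sought by Pearson's correlation. Because the table was selected for a difference between the groups, high values were common: 485 of 3256 genes had an r above 0.95 with Grem1 and 954 an r below -0.95. The closest were the small nucleolar RNA Snora65 (r = 0.9998), the lysosomal alpha-galactosidase Gla (0.9990) and the zinc finger gene Zfp35 (0.9988). The most opposite were Shbg, which encodes androgen-binding protein (-0.9981), and the complement gene C1qb (-0.9978). For deviations from the group means, the same correlations with Grem1 were 0.98 for Snora65, 0.92 for Gla, 0.94 for Zfp35, -0.79 for Shbg and -0.84 for C1qb. The folds of Snora65, Gla and Zfp35 in the authors' deposited table were 2.88, 1.54 and 1.90, so likeness of pattern did not mean likeness of size.

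With Bmp2, 887 genes had an r above 0.95 and 341 an r below -0.95. Edn1, the vasoconstrictor endothelin 1 (r = 0.9987), and Pycard, an inflammasome adaptor (0.9984), were among the closest. Mrpl1, a mitochondrial ribosomal protein (-0.9988), and Mettl1, a transfer RNA methyltransferase (-0.9985), were most opposite. Edn1 fell 4.99-fold and Pycard 5.35-fold in the authors' deposited table. Between Grem1 and Bmp2 themselves r was -0.98 over the 6 libraries and 0.19 for deviations from the group means, so their opposition lay between the groups and not among replicates. These correlations rest on 6 libraries that share 1 group difference and are descriptions.

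Marker transcripts of several cell types were in the table and differed between the same groups as Grem1 and Bmp2. Over the whole table, 67.5% of genes were called lower and 32.1% higher. The marker counts were not repeated under the other scalings. In bulk RNA, fewer cells of a type and less RNA per cell cannot be told apart. Of 28 Sertoli markers 22 were in the table, 21 of them lower, and their summed level on the log2 scale went from 17.87 to 18.23 across wild-type libraries to 16.89 to 17.16 across knockout libraries. The 16 of 18 endothelial markers in the table were all lower (summed level 14.00 to 14.10 against 13.17 to 13.37), led by Dll4 and Gpihbp1. The 16 of 17 macrophage markers in it were all lower (14.86 to 15.22 against 13.38 to 13.61), led by Itgam and C1qb. So were the 10 of 12 myoid markers (19.03 to 19.35 against 18.54 to 18.74) and the 5 of 14 interstitial fibroblast markers (20.45 to 20.60 against 19.38 to 20.12) in it, with Myh11, Cnn1, Mfap5 and Col1a1 in the lead. The 3 of 10 Leydig markers in the table, Star, Cyp11a1 and Hsd3b1, rose (15.15 to 15.35 against 15.71 to 16.04). Of 12 germ cell markers 3 were in the table, with Kit and Sycp3 lower and Uchl1 higher. Their summed level (11.61 to 12.08 against 12.14 to 12.39) followed Uchl1, by far the highest, while the mean of Kit went from 7.83 to 6.03. Each summed level above is likewise carried mostly by the most abundant markers of its list. No library value of any gene analysed was listed at 0, so the values do not show whether a marker was detected. Amh and Inha were on the Sertoli list as well, and Eng on the endothelial list. The part of these cell types in the values of Grem1 and Bmp2 was not tested. Uxt had no row among the genes analysed here, so the group labels were not checked against it. Median log2 values of the table's genes were 9.15 to 9.18 in wild-type and 8.82 to 8.91 in knockout libraries, and no library stood apart from its group in them.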

How the data were processed

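Groups and replicate numbers came from sample titles. FastQC, STAR, DESeq2 and mm10 were named per the submitters' processing notes; the counter, annotation and use of strand are not given in the sources used here. What the authors deposited was 1 table of 3261 rows. Each library's value was deposited on a log2 scale, normalized by an unstated transformation. The deposited fold score is the ratio of knockout to wild type, or minus its inverse; the deposited p-values are those of the authors' test. The symbols Efna1 and Hmga1, each on more than 1 row, were left out (4 rows). Every gene analysed had a deposited fold of 1.5 or more and a deposited adjusted p-value of at most 0.0499.

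limma 3.58.1 (R 4.3.3, mean-variance trend, no covariate) was fitted to all 3257 genes, tested on simulated data, with Benjamini-Hochberg adjustment and calls at 0.05. The design's pseudocount was not needed for log2 values. Members, lists and the rule for named genes (list members in the table, the 3 most and 2 least correlated genes, the 2 markers of each type with the largest fold) were chosen with earlier results of these data known. A gene that this rule names for Bmp2 is not reported here. Lengths are unions of GENCODE M21 exons. No counts were used, so depth is unknown and no counting interval was computed.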

Additional observations from a re-analysis of the deposited data

How the results depend on the processing

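The difference of Grem1 (3.10) was 3.41 after quantile normalization and 3.40 after median centring, and that of Bmp2 (-1.01) was -0.57 and -0.72. All these shifts were upward, as were those of the table's median difference (0.33 and 0.30). Leaving out each library in turn gave 3.03 to 3.24 for Grem1 and -1.08 to -0.98 for Bmp2. Over the table, 1044 genes were called higher and 2200 lower; the lower count was 1143 after quantile normalization and 1024 after centring, and 2085 to 2158 with a library left out (higher, 1014 to 1034). Counts of pathway genes in this section include Grem1 and Bmp2, as a description only. They came to 5 called higher and 23 lower, or 4 and 22 without Grem1 and Bmp2. With both included, the lower count was 11 after quantile normalization and 10 after centring, and the higher count 3 at an adjusted p under 0.01. With a library left out, 21 to 23 were lower and 5 to 5 higher. Single genes that turned were Bmp7 (0.089 after quantile normalization, 0.0097 after centring), Bmp8b (0.0093 after centring) and Hamp (0.20 after centring). Both scalings were set on the selected genes themselves, so these turns do not show an absence of difference. Bmp7 lost its call without wild-type replicate 2 or 3 or knockout replicate 2 or 3, and Hamp without knockout replicate 1 or 2.

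Same-numbered libraries had correlations of their deviations of 0.18, -0.073 and -0.0039, and different-numbered ones ran from -0.20 to 0.20. These values gave no sign of pairing by number, but 3 libraries per group cannot exclude it. With the replicate number as a block, the differences of Grem1 (3.10) and Bmp2 (-1.01) were as before. Over the table, 1045 genes were then higher and 2207 lower. Of the pathway genes, Grem1 and Bmp2 included, 5 were called higher and 23 lower. Other pseudocounts were not run, since the values were on a log scale.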

Other observations

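Genes near Grem1 and Bmp2 on chromosome 2 were looked up in GENCODE M21. Within 1 Mb of Grem1 lay 10 other protein-coding genes, of which Actc1, the cardiac actin gene, 288.6 kb away, was in the table. Actc1, named after its value was seen, was lower (7.42 ± 0.52 in wild-type, 6.57 ± 0.27 in knockout, SD, n = 3 each; 2.52-fold in the authors' deposited table), and its groups overlapped. Fmn1, the formin gene next to Grem1, and Scg5 were not in the table and were not analysed here. Within 1 Mb of Bmp2 lay 9 other protein-coding genes, the nearest of them Fermt1 at 606.3 kb, and 3 were in the table. The transfer RNA methyltransferase gene Trmt6 rose 1.65-fold and the phosphodiesterase gene Gpcpd1 was 1.70-fold lower in the authors' deposited table, the latter not called after quantile normalization (difference -0.12). Lrrn4, a leucine-rich repeat gene, was 4.76-fold higher in the authors' deposited table and differed among its knockout libraries, which stood at 5.61, 5.59 and 6.53 against 5.17, 5.34 and 5.17 in wild-type cells. Without the third knockout library the difference of Lrrn4 was 0.37 in place of 0.68.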
